A study of Homo sapiens with 16 samples.

Results

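The genes examined here were the 4 pyruvate dehydrogenase kinases (PDK1, PDK2, PDK3 and PDK4) and 5 genes of mitochondrial fatty acid oxidation (CPT1A, CPT2, ACADVL, ACADM and HADHA), 9 of the 18190 gene symbols in the deposited table. A gene was represented by the probe that carried its symbol, and CPT1A, which had a second probe, by the probe with the higher mean signal. The cells were MCF-10HER-2 (MCF10HER2), human MCF-10A breast epithelial cells, which are not transformed, transduced so that they stably over express the receptor tyrosine kinase HER2. The labels do not say whether the line is 1 clone. All cultures grew in serum-free medium with epidermal growth factor and hydrocortisone and without insulin, and the medium was renewed at the start of treatment. CP724,714, an inhibitor of the HER2 kinase, was given at 1 µM to parallel cultures, and RNA was taken every 3 h. The series holds 16 Illumina arrays, 1 of untreated cells at 0 h and 15 of treated cells at 3 to 45 h, with 1 array a time point and no replicate. Controls without the inhibitor at later times were not analysed here.

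Pyruvate dehydrogenase lets the product of glycolysis enter the mitochondrial oxidation of glucose. The PDK kinases phosphorylate the enzyme and switch it off, and PDK4 is the member best known for rising in fasting, when muscle and other tissues turn from glucose to fat. Long-chain fatty acids are carried into the mitochondrion by the carnitine shuttle, to which CPT1A and CPT2 belong, and are then shortened by acyl-CoA dehydrogenases such as ACADVL and ACADM and by the trifunctional protein, of which HADHA is the alpha subunit. The question was whether transcripts of fat oxidation rose with PDK4 once HER2 was inhibited. The arrays measured mRNA, and fuel use itself was not measured.

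The start of PDK4 and that of ACADM are shown because these genes had large changes with unlike time courses. Each sequence is the 250 bases before the RefSeq start (GRCh38.p14), PDK4 at chr7:95596517-95596766 on the minus strand and ACADM at chr1:75724459-75724708 on the plus strand. Capitals mark matches to the motifs searched, which were GC boxes (GGGCGG on either strand) and CCAAT boxes (CCAAT on either strand) in these sequences.
PDK4: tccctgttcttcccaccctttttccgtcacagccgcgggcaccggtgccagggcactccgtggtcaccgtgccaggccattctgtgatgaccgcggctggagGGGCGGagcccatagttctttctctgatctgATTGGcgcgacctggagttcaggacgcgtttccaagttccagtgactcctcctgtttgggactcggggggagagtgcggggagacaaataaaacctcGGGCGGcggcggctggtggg
ACADM: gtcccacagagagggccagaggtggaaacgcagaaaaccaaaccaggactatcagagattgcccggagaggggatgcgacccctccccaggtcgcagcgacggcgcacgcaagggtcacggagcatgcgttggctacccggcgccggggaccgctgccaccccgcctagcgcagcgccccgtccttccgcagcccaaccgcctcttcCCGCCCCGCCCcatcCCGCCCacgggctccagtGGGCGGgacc
All 9 genes matched the RefSeq table, with 13 promoter entries, since PDK1, PDK2 and ACADVL have several. A gene was counted when any of its entries matched, while the shares of all promoters are per entry. The counts and shares below are therefore unlike measures and show no excess in these genes. PDK1 and PDK2 had a CCAAT box, and PDK1, PDK2 and ACADVL a GC box, in some of their entries but not all. A GC box was in 8 of the 9 genes and in 42.6% of all 35116 promoters of this length. A CCAAT box was in 4 of the genes, PDK1, PDK2, PDK3 and PDK4, and in 32% of all promoters. An E-box (CACGTG) was in 1 gene, PDK2, and in 6.34% of all promoters. The FOXO core (GTAAACA, in 2.98% of all promoters), the nuclear receptor half-site (AGGTCA, in 12.1%) and the estrogen-related receptor element (TNAAGGTCA, in 0.854%), which contains that half-site, were searched on both strands and were in none of the 9. These matches describe letters in a short window, not binding.

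Signals are given below as log2 normalised intensity, and a probe was called detected on an array when its detection p-value, set against the array's negative controls, was under 0.05. Probes detected on 3 or more arrays, 12321 of 20589, were tested, among them 8 of the 9 genes. Between 10363 and 11436 probes were detected on an array. The background, the median intensity of undetected probes, of the 8 arrays from 0 to 21 h (135.9 to 148.9) lay below that of the 8 arrays from 24 to 45 h (164.5 to 173.9), so that time and array set cannot be told apart at 24 h. Slopes were therefore also fitted within each set. Upper quartile intensities were 397 to 418 on the 9 h and 18 h arrays and 553 to 804 on the rest. Of 6 breast epithelial markers, KRT5, KRT17, KRT18 and EPCAM were detected on all 16 arrays, CDH1 on 15 and KRT14 on 1. The 3 adipocyte markers were detected on none, and of the fibroblast markers COL3A1 alone was detected, on 2. PECAM1 and CD14, from the endothelial and leukocyte lists, were detected on all 16 arrays, and PTPRC on 7.

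**Figure D1:**
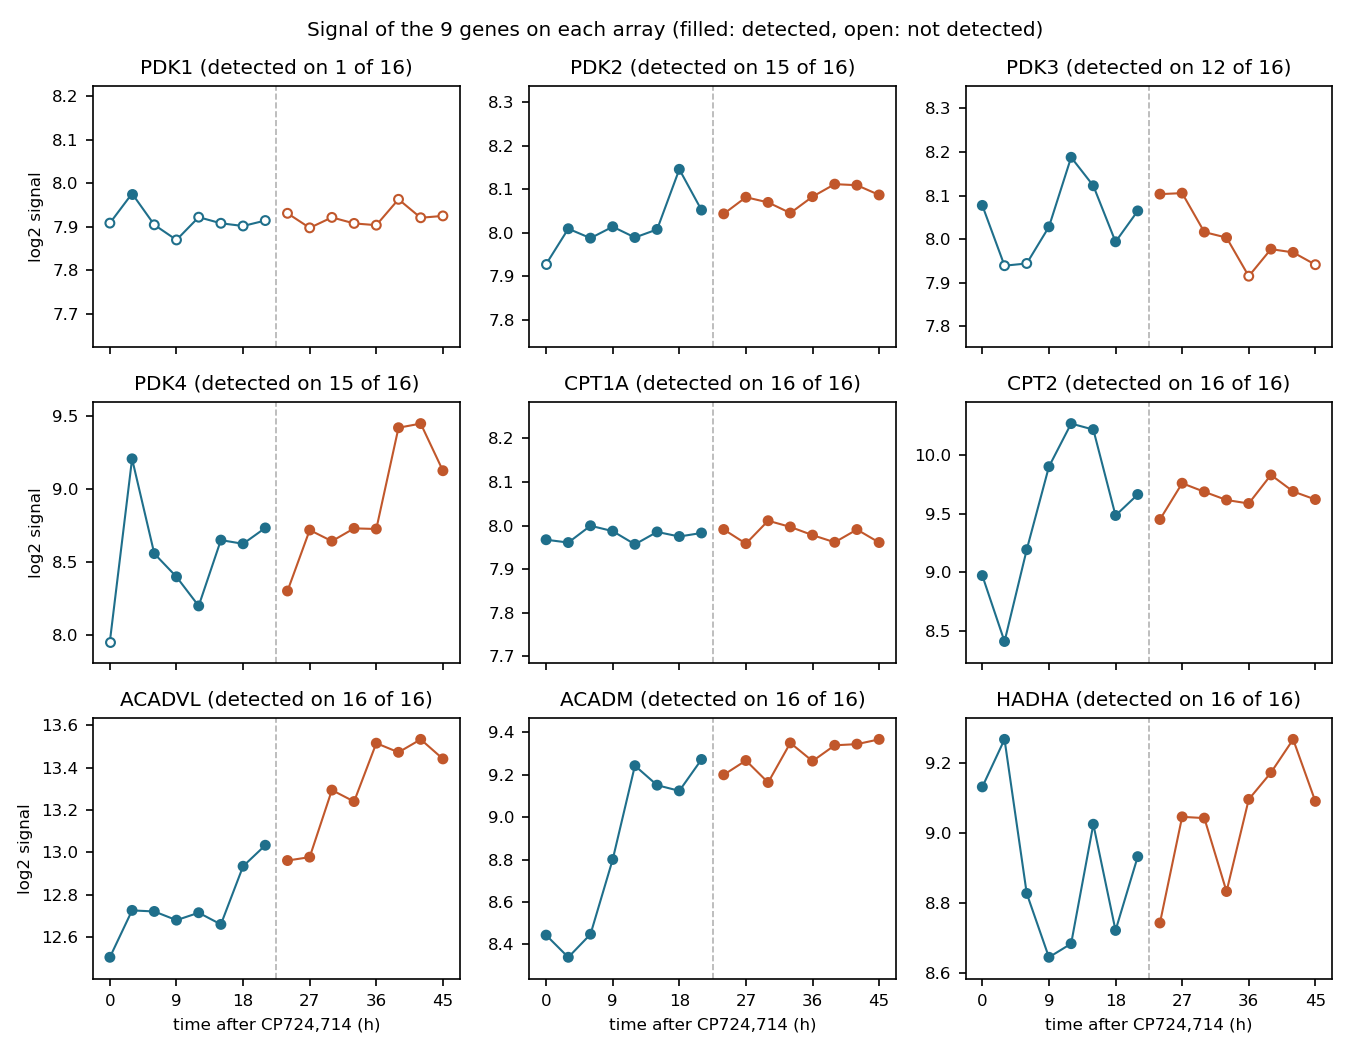
Log2 normalised signal (y axis, a separate scale in each panel) of the probe of each of the 9 genes against hours after CP724,714 (x axis), 1 point an array. Filled points were detected and open points were not, blue is the set from 0 to 21 h and orange the set from 24 to 45 h, with a dashed line between them. PDK4 was not detected before treatment and peaked at 3 h and again at 39 to 42 h. ACADM stepped up between 6 and 12 h, ACADVL was highest from 36 to 45 h, and CPT1A stayed between 7.96 and 8.01.

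PDK4 was the kinase whose transcript rose most. It was not detected at 0 h, where its log2 signal was 7.96, and was detected on the 15 treated arrays. At 3 h the signal was 9.21, at least 2.38-fold above 0 h. It then fell back through 8.56 (6 h) and 8.40 (9 h) to 8.20 at 12 h. The early peak was thus over within 12 h, when the signal was at least 1.18-fold above 0 h. From 15 to 36 h the signal ranged from 8.30 at 24 h to 8.73. The last 3 arrays, of 39, 42 and 45 h, read 9.42, 9.45 and 9.13. They were at least 2.76-, 2.81- and 2.25-fold above 0 h and, with the 3 h array, stood above all other arrays of the course. The RNA came from whole cultures, so a change in the number of expressing cells and a change in RNA per cell cannot be told apart.

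A straight line through the 16 arrays rose by 0.81 ± 0.25 (log2 over 45 h, SE, adjusted p = 0.0233, limma). Rising lines were called for 12.9% and falling lines for 11.5% of all tested probes, and 4 of the 8 genes rose (PDK2, PDK4, ACADVL and ACADM) while 0 fell. The call for PDK4 was lost without the 0 h (0.66, adjusted p = 0.0937), 39 h (0.69, adjusted p = 0.0609) or 42 h array (0.66, adjusted p = 0.0748) and with the array set as a block (1.28, adjusted p = 0.135), and the line was 1.40 (adjusted p = 0.0179) with normexp at an offset of 50. The spline of time, which can follow a peak, gave an adjusted p of 0.0547. Within the sets the slope of PDK4 was 0.22 ± 0.30 (log2 over 21 h, SE, adjusted p = 0.623) at 0 to 21 h and 0.98 ± 0.30 (adjusted p = 0.0695) at 24 to 45 h. The late slope passed the threshold without the 0 h array (0.98, adjusted p = 0.0276) or the 3 h array (1.00, adjusted p = 0.0102), with array weights (1.01, adjusted p = 0.00106) and with arrays scaled to the median of all probes (1.07, adjusted p = 0.0155) or of those detected on all arrays (1.09, adjusted p = 0.0204).

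The other kinases were dim. PDK1, the kinase known as a target of the hypoxia factor HIF1, was detected on the 3 h array alone, its log2 signal ranged from 7.87 at 9 h to 7.98 at 3 h, and it was not tested. PDK2, which is expressed in most tissues, was not detected at 0 h (7.93) and was detected on the other 15 arrays. Its log2 signal ranged from 7.93 to 8.15, with a median of 8.05, and it was above 0 h on 15 of 15 treated arrays. The rise of PDK2 was 0.14 ± 0.03 (log2 over 45 h, SE, adjusted p = 0.00270) and lost its call with the array set as a block (0.20, adjusted p = 0.0605). It was 0.69 (adjusted p = 0.00188) with normexp at an offset of 50. The early slope of PDK2, 0.13 ± 0.04 (log2 over 21 h, SE, adjusted p = 0.0141), lost its call without the 0 h (0.11, adjusted p = 0.0767) or 18 h array (0.086, adjusted p = 0.0572) and with array weights (0.15, adjusted p = 0.0638). PDK3 was detected on 12 arrays, ranged from 7.92 at 36 h to 8.19 at 12 h with a median of 8.01, and changed by -0.08 ± 0.06 (adjusted p = 0.312). With array weights the change of PDK3 was -0.24 and passed the threshold (adjusted p = 0.000412).

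The scaling of the arrays bears on dim probes. With the main normalization 1584 probes rose and 1420 fell on the line, so that 52.7% of calls were rises. With arrays scaled to the median of all probes the share was 80.5% (2409 rose, 585 fell). With arrays scaled to the median of the probes detected on all 16 arrays it was 18.9% (1107 rose, 4751 fell), and the median change of all tested probes moved by -0.28. Under that last scaling the change of PDK2 was -0.18 (adjusted p = 0.245), that of PDK3 -0.43 (adjusted p = 0.00846) and that of CPT1A -0.34 (adjusted p = 0.0447). Relative to the moved median they were 0.10, -0.15 and -0.05. Both median scalings subtract a single constant from each array, so these relative values are the same under either. They are therefore no check on the direction of PDK2. PDK4 (0.77), ACADVL (0.95) and ACADM (0.81) rose and kept their calls under this scaling.

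Of the oxidation genes, ACADVL and ACADM rose over the course, CPT2 rose early, and HADHA and CPT1A passed no test. The spline was past the threshold for 41.9% of all tested probes and for 4 of the 8 genes, which were PDK2, CPT2, ACADVL and ACADM. The median line of the 8 genes was 0.36 and that of all genes tested was -0.00097. A change of 1.7-fold or more from 0 h at any time, which is a threshold of the study and carries no test, was met by 19.5% of all tested probes and by 4 of the 8 genes, PDK4, CPT2, ACADVL and ACADM. At 2 successive times it was met by 13.7% of probes and by the same 4 genes.

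ACADVL encodes the dehydrogenase that opens the oxidation of very long and long acyl chains. Its log2 signal was lowest at 0 h (12.51), was 12.66 to 12.73 from 3 to 15 h and reached 13.03 at 21 h. It was 12.96 at 24 h and 13.44 to 13.53 from 36 to 45 h. All 15 treated arrays were above 0 h, by 2.04-fold at 42 h. The line rose by 1.04 ± 0.10 (log2 over 45 h, SE, adjusted p = 1.61e-06). ACADVL was also the only gene of the 8 with a rising slope called in both sets, 0.38 ± 0.13 (log2 over 21 h, SE, adjusted p = 0.0355) at 0 to 21 h and 0.58 ± 0.13 (adjusted p = 0.0172) at 24 to 45 h. Such slopes were called for 14.6% of all tested probes in the earlier set and 2.88% in the later one, and for 4 (PDK2, CPT2, ACADVL and ACADM) and 1 of the 8 genes. The early call of ACADVL was lost without the 0 h, 18 h or 21 h array (adjusted p 0.0904 to 0.192) and the late call without the 24 h, 27 h or 42 h array (adjusted p 0.0652 to 0.126). Scaling to the median ended the late call over all probes (adjusted p = 0.291) and both calls over the probes detected on all arrays (adjusted p 0.0969 and 0.0548), and the early one was also lost with array weights (adjusted p = 0.136) and with no detection filter (adjusted p = 0.0678). With scaling to the median of all probes the early slope was 0.74 (adjusted p = 0.0498).

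ACADM, the dehydrogenase of medium-length chains, rose in a step. Before treatment it read 8.44, and the 3 h and 6 h arrays gave 8.34 and 8.45. It reached 8.80 by 9 h and 9.24 by 12 h. Thereafter all 12 arrays lay between 9.12 and 9.37 (12 to 45 h), above every array from 0 to 9 h. The slope at 0 to 21 h was 1.02 ± 0.16 (log2 over 21 h, SE, adjusted p = 0.000249) and that at 24 to 45 h was 0.17 ± 0.16 (adjusted p = 0.621). The slopes differed by -0.86 ± 0.22 (later minus earlier, adjusted p = 0.0107), a difference called for 24.8% of all tested probes and for 1 of the 8 genes. The line rose by 0.93 ± 0.17 (log2 over 45 h, SE, adjusted p = 0.000476), or by 0.41 (adjusted p = 0.0124) with array weights. The early slope kept its call whichever single array was left out, with values from 0.96 to 1.13.

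CPT2, which releases the acyl group from carnitine inside the mitochondrion, had the widest range of the 9 genes, 1.85 on the log2 scale. Its signal was 8.97 at 0 h and lowest at 3 h (8.41). It climbed through 9.19 at 6 h and 9.90 at 9 h to 10.26 at 12 h and 10.21 at 15 h, which was 2.45- and 2.36-fold above 0 h. From 18 to 45 h it ranged from 9.45 to 9.83, between the start and the peak. The spline gave an adjusted p of 0.00785 and the line 0.53 ± 0.32 (adjusted p = 0.250). The early slope of 1.13 ± 0.36 (log2 over 21 h, SE, adjusted p = 0.0265) lost its call without the 0 h (1.16, adjusted p = 0.0544), 3 h (0.75, adjusted p = 0.129) or 15 h array (0.99, adjusted p = 0.0554) and with array weights (0.78, adjusted p = 0.197).

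HADHA, which carries out late steps for long chains, read lower in mid-course, but no main fit called a change. It read 9.13 before treatment and 9.27 on the 3 h array, was lowest at 9 h (8.64) and ranged from 8.68 to 9.02 from 12 to 21 h. In the later set it lay between 8.74 at 24 h and 9.27 at 42 h, so the sets overlapped. The line changed by 0.20 ± 0.16 (adjusted p = 0.409) and the spline gave an adjusted p of 0.0673. The slopes were -0.29 ± 0.19 (adjusted p = 0.261) and 0.35 ± 0.19 (adjusted p = 0.311). The line passed the threshold with median scaling (0.54, adjusted p = 0.0406) and with array weights (0.47, adjusted p = 0.00886). CPT1A, the liver-type carnitine palmitoyltransferase and the rate-setting entry of long chains into the mitochondrion, was detected on all 16 arrays but close to background. Its log2 signal was 7.96 to 8.01, against a median of 7.88 and a 95th percentile of 7.91 for 3343 undetected probes, and the line changed by 0.0035 ± 0.016 (adjusted p = 0.903). On each array 188 to 479 probes that were not called detected were brighter than it, and the second CPT1A probe was detected on 0 arrays. At 39 h CPT1A, with an intensity of 219, had a detection p-value of 0.0067, and PDK1, with 220, had 0.0508. The detection calls of CPT1A are thus not comparable with those of the other members, and the reason was not tested. No change of CPT1A was detected on the line, the spline (adjusted p = 0.836) or the slopes.

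**Figure D2:**
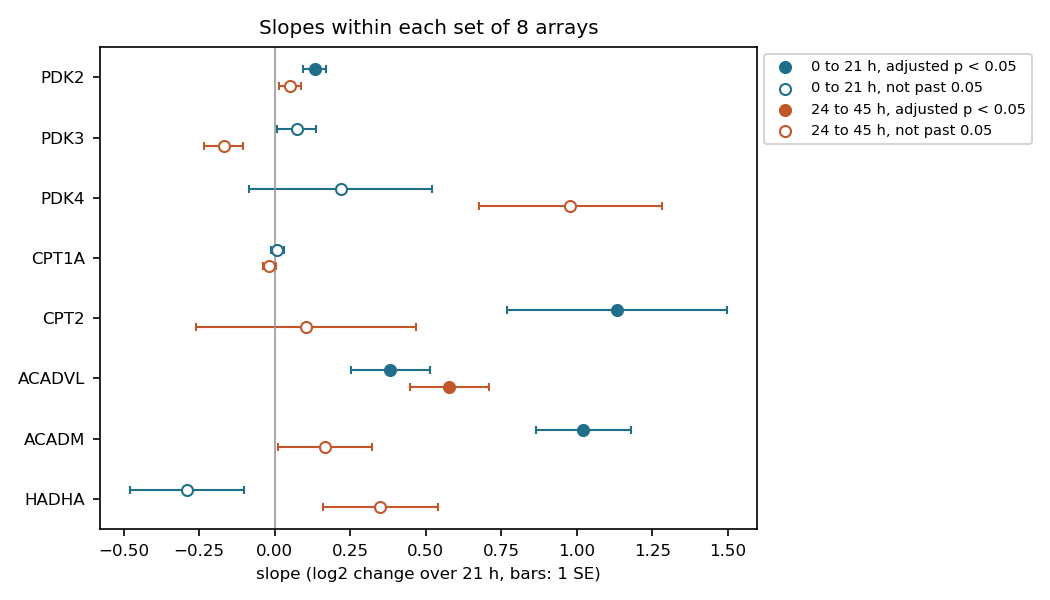
Slope within each set of 8 arrays (x axis, log2 change over 21 h) for the 8 tested genes, blue at 0 to 21 h and orange at 24 to 45 h, with bars of 1 SE. Filled points had an adjusted p under 0.05 (limma). CPT2 and ACADM rose in the earlier set, PDK4 had its larger slope in the later set without passing the threshold, and ACADVL rose in both.

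PDK4 and the oxidation genes were then set side by side within each array set. At the early PDK4 peak of 3 h, CPT2 (8.41) and ACADM (8.34) were at the lowest values of their courses, while HADHA was at 9.27, equal to its highest. CPT2 and ACADM stepped up by 12 h, when PDK4 was at its lowest treated value. At 39 to 45 h PDK4 was high again, ACADVL (13.44 to 13.53) and ACADM (9.34 to 9.37) were near the top of their ranges, and CPT2 (9.62 to 9.83) lay below its peak of 12 h.

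Over the 8 arrays from 0 to 21 h Pearson's r of PDK4 was -0.38 with CPT2, -0.10 with ACADM, 0.48 with ACADVL, 0.38 with HADHA and 0.07 with CPT1A. Exact permutation p ranged from 0.218 to 0.877, and from 0.436 to 0.877 after adjustment over the 10 relations tested. Spearman's rho ranged from -0.21 (CPT2) to 0.64 (ACADVL, exact permutation p = 0.0962, adjusted p = 0.240). Over the 8 arrays from 24 to 45 h r was 0.84 with HADHA (exact permutation p = 0.00893, adjusted p = 0.0893) and 0.75 with ACADVL (exact permutation p = 0.0425, adjusted p = 0.150). It was 0.74 with ACADM (exact permutation p = 0.0451, adjusted p = 0.150), 0.66 with CPT2 (exact permutation p = 0.0697, adjusted p = 0.174) and -0.38 with CPT1A (exact permutation p = 0.335, adjusted p = 0.454). The corresponding rho was 0.81 for HADHA (exact permutation p = 0.0218, adjusted p = 0.123), 0.76 for both ACADVL and ACADM (exact permutation p = 0.0368, adjusted p = 0.123), 0.50 for CPT2 (exact permutation p = 0.216) and -0.31 for CPT1A (exact permutation p = 0.462). No relation passed the threshold after adjustment. The tests were two-sided over all 40320 orders of 8 arrays, and since arrays follow each other in time, a drift common to both genes counts as a relation. Without the 2 arrays farthest from the PDK4 median (39 h and 42 h) r was 0.70 for HADHA, 0.65 for ACADVL, 0.74 for ACADM, 0.48 for CPT2 and -0.52 for CPT1A. Without the 2 farthest arrays of the earlier set (0 h and 3 h) it was 0.72 for HADHA, 0.56 for ACADVL, 0.05 for ACADM, -0.47 for CPT2 and 0.57 for CPT1A. Without the 0 h array the earlier relation with HADHA passed (r 0.90, adjusted p = 0.0437). The later relation with HADHA does not use that array, and its r stayed at 0.84. It passed too (adjusted p = 0.0437), but the 10 relations were adjusted together, so this is no separate change of the later relation. Without the 33 h array the later relation passed with r 0.88 (adjusted p = 0.00992).

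**Figure D3:**
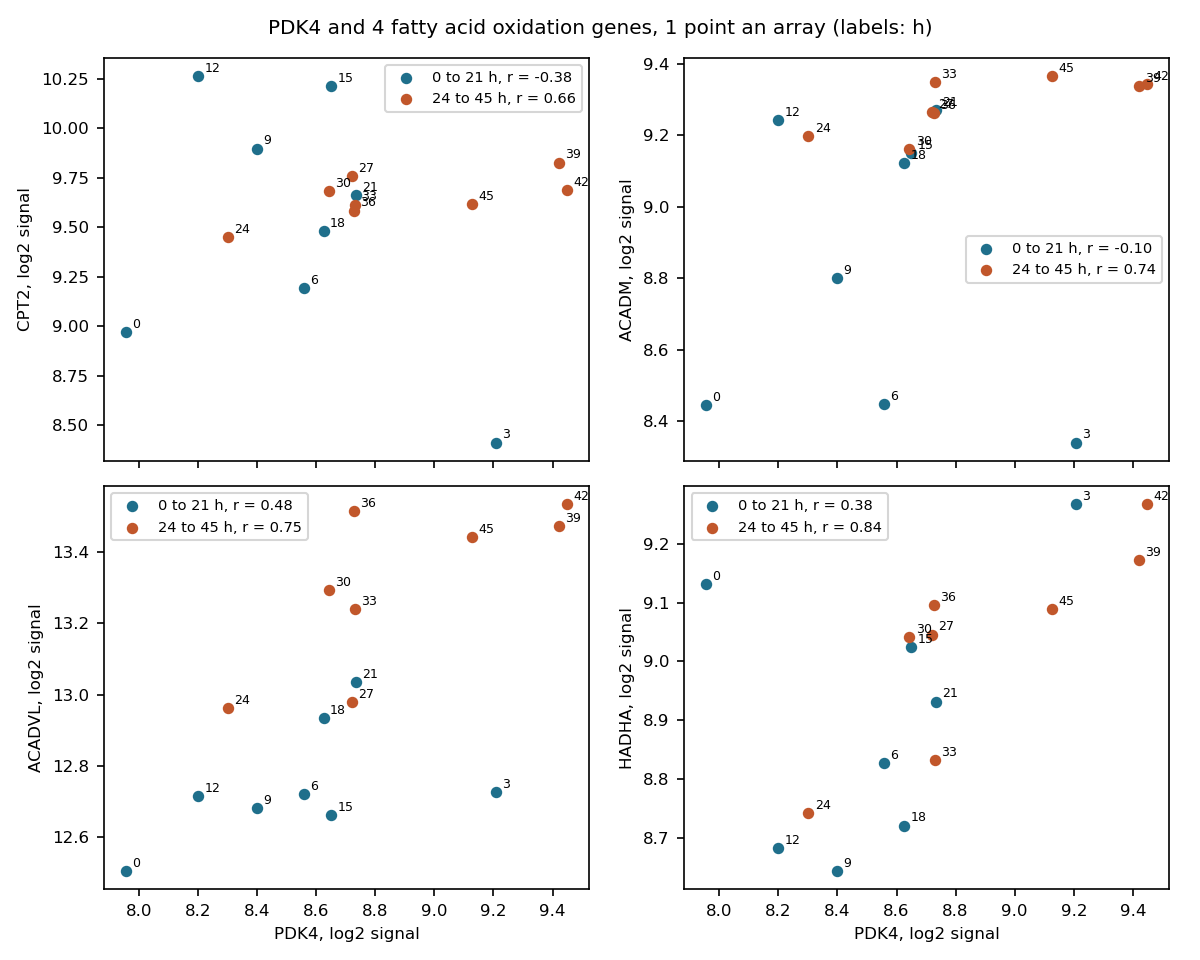
Log2 signal of PDK4 (x axis) against that of CPT2, ACADM, ACADVL and HADHA (y axes), 1 point an array with its time in hours beside it, blue at 0 to 21 h and orange at 24 to 45 h, and Pearson's r of each set in the legend. In the earlier set the 3 h array, high in PDK4, sits at the bottom for CPT2 and ACADM, and in the later set all 4 genes had r between 0.66 and 0.84.

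The probes most like PDK4 over the 16 arrays, among 8672 detected on all of them, were those of BCL6 (r = 0.96), a transcriptional repressor, CEBPD (r = 0.91), a transcription factor, ZNF627 (r = 0.90), a zinc finger protein, MGC17330 (r = 0.90) and TSC22D3 (r = 0.89), known as a glucocorticoid-induced gene. The log2 signal of BCL6 went from 10.06 before treatment to 11.88 at 3 h, fell to 10.71 by 9 h and ended at 11.95, so it had the early and the late peak of PDK4. Its r with PDK4 was 0.99 within the earlier and 0.92 within the later set. The probes most like CPT1A were those of the hexokinase HK1 (r = 0.66), the RNA helicase DHX16 (0.65), LARP5 (0.63), the glycogen phosphorylase PYGB (0.62) and the protein kinase PRKX (0.62), a weaker likeness to a probe near background. These r over a selected top of the table are descriptions and carry no test.

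Of the other enzymes of mitochondrial beta-oxidation, a list of 14 genes, 11 were tested. On the line 7 rose, 0 fell and 4 did not pass, against 12.9% of all tested probes rising, and the median of the list was 0.92. A rising line did not always end above 0 h. ETFA, among those that rose and picked after its values were seen, read 12.8 at 0 h, 12.4 to 12.6 from 3 to 9 h and 12.8 at 45 h. HADH, the hydroxyacyl-CoA dehydrogenase of short and medium chains, rose by 1.19 ± 0.34 (log2 over 45 h, SE, adjusted p = 0.0161), and DECR1, which helps to oxidise unsaturated chains, by 1.04 ± 0.11 (adjusted p = 2.77e-06). The HADH line lost its call with array weights (0.37, adjusted p = 0.193) and without the 3 h array (1.01, adjusted p = 0.0508). The spline called 9 of the 11, against 41.9% of all tested probes. At 0 to 21 h 6 rose and 1, the enoyl-CoA isomerase ECI1, fell (-0.44 ± 0.13, log2 over 21 h, adjusted p = 0.0177). Of all tested probes 14.6% rose and 15.6% fell in that set. At 24 to 45 h 0 rose and 0 fell, against 2.88% and 2.19% of all tested probes, so 0 calls among 11 genes is near those shares. The count of 7 rising lines was 2 without the 3 h array and 1 with the array set as a block.

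On 9 of these 11 genes all 4 arrays from 12 to 21 h lay above all 3 arrays from 3 to 9 h, against 17.1% of all tested probes, a description chosen after the time courses were seen. ECI1 lay below. ETFB, a subunit of the flavoprotein that takes electrons from the acyl-CoA dehydrogenases, was picked after its values were seen. It read 11.90 before treatment, 9.61, 9.86 and 10.72 on the 3, 6 and 9 h arrays, 12.46 on the 12 h array and 11.85 to 12.42 in the later set. HADH read 11.28 before treatment, 10.27, 9.90 and 10.24 on the same 3 arrays, and 11.50 to 11.64 from 12 to 21 h. Both were below 0 h on each array from 3 to 9 h and above it on each from 12 to 21 h. The ETFB line was 1.35 ± 0.60 (adjusted p = 0.112), and its second probe gave 1.54 ± 0.52 (adjusted p = 0.0366). The second probe was called detected on 5 arrays, although its mean intensity was 3303, and the reason was not tested. Of the members, ACADM was likewise higher from 12 to 21 h than from 3 to 9 h without overlap, and the other 4 oxidation genes overlapped.

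**Figure D4:**
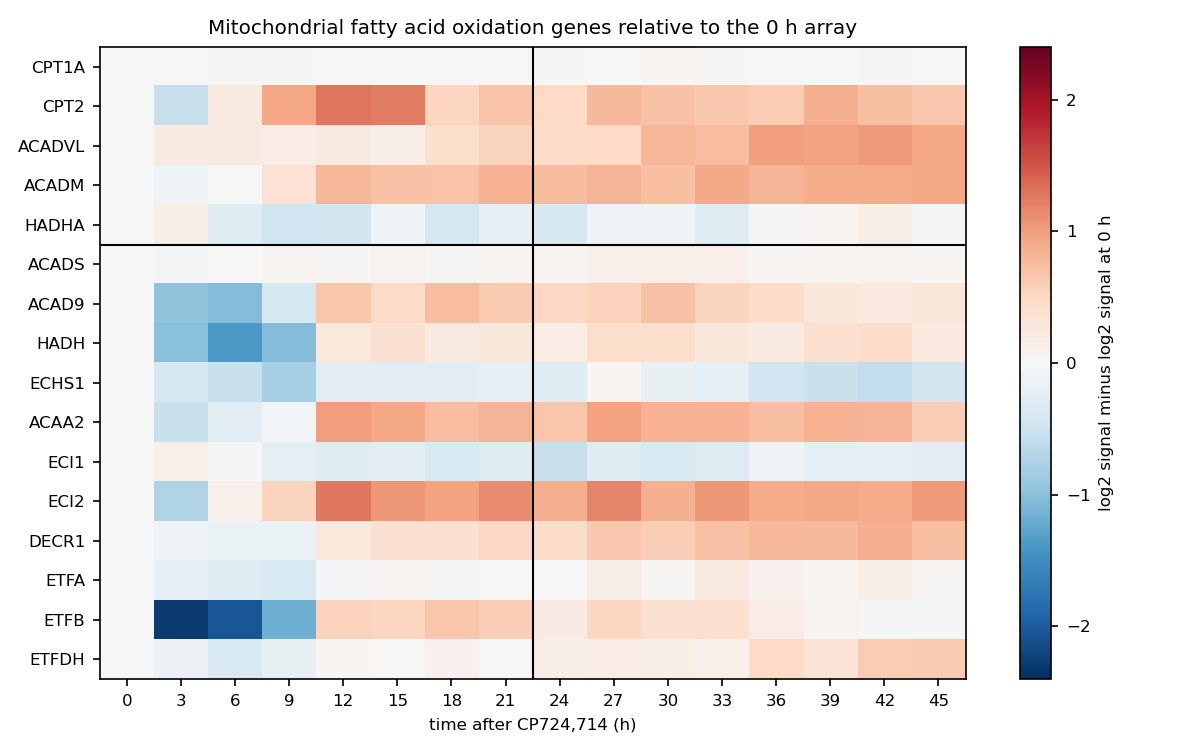
Log2 signal minus that at 0 h (colour, red above and blue below the 0 h array) for the 5 oxidation genes chosen here (above the horizontal line) and the 11 tested other enzymes of mitochondrial beta-oxidation (below it), by hours after CP724,714 (x axis). The vertical line separates the array sets. ACAD9, HADH and ETFB were below 0 h at 3 to 9 h and above it from 12 to 21 h, ECI1 was lower from 12 to 21 h than from 3 to 9 h, and CPT1A hardly differed from 0 h.

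On the glucose side, 12 genes of the pyruvate dehydrogenase complex and of pyruvate entry were tested. On the line 3 rose, 0 fell and 9 did not pass, against 12.9% of all tested probes rising and 11.5% falling, and the median was -0.06. PDHB, the beta subunit of the enzyme that the PDK kinases inhibit, rose by 0.89 ± 0.21 (log2 over 45 h, SE, adjusted p = 0.00478), and by 0.34 with array weights, past the threshold no longer (adjusted p = 0.0542). LDHB, a lactate dehydrogenase subunit, had a rising line of 0.66 ± 0.21 (adjusted p = 0.0303), and DLD, the dihydrolipoyl dehydrogenase, rose by 0.54 ± 0.15 (adjusted p = 0.0142). The LDHB signal was 12.9 at 0 h, 12.0 to 12.1 from 3 to 9 h and 12.9 at 45 h, so it ended at about its untreated value. The LDHB call was lost without the 3 h, 6 h, 9 h or 39 h array, without the 9 h and 18 h arrays together, with both median scalings (adjusted p 0.0503 to 0.0995) and with array weights (0.30, adjusted p = 0.0854). The PDHB signal was 12.14 at 0 h and 11.33 at 3 h, and 12.52 to 12.82 from 24 to 45 h. At 0 to 21 h 3 genes fell, the phosphatase PDP1, which reverses the action of the PDK kinases (-1.07 ± 0.28, log2 over 21 h, adjusted p = 0.00977), and the mitochondrial pyruvate carrier subunits MPC1 (-0.60 ± 0.20, adjusted p = 0.0309) and MPC2 (-0.72 ± 0.18, adjusted p = 0.00788), while PDHB (1.06 ± 0.23, adjusted p = 0.00306) and LDHA (0.59 ± 0.11, adjusted p = 0.00132) rose, against 15.6% of all tested probes falling and 14.6% rising. LDHA, the subunit that favours lactate production, fell at 24 to 45 h (-0.79 ± 0.11, adjusted p = 0.000969), a fall called for 2.19% of all tested probes.

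Of 9 tested genes for fatty acid activation and the carnitine shuttle, 3 rose on the line and 0 fell, against 12.9% and 11.5% of all tested probes, with a median of 0.06. CRAT, the carnitine acetyltransferase, rose by 1.16 ± 0.14 (log2 over 45 h, SE, adjusted p = 9.96e-06), from 8.81 at 0 h to 10.12 at 45 h. Its second probe, also detected on all 16 arrays, changed by 0.03 ± 0.05 (adjusted p = 0.736). That probe was dim, with a mean intensity of 293, and the offset pulls folds of dim probes toward 1. CROT, the carnitine octanoyltransferase, rose by 0.28 ± 0.06 (adjusted p = 0.00143) and ACSL5, an acyl-CoA synthetase, by 0.16 ± 0.04 (adjusted p = 0.0126). CROT was 0.04 (adjusted p = 0.775) when arrays were scaled to the probes detected on all 16, which is 0.32 relative to the moved median, and 0.66 (adjusted p = 0.00155) with normexp at an offset of 50. At 0 to 21 h 1 gene rose, CRAT (0.89 ± 0.15, log2 over 21 h, SE, adjusted p = 0.000573), against 14.6% of all tested probes. In the same set 2 fell, against 15.6%, the acyl-CoA synthetase ACSL1 (-1.09 ± 0.28, adjusted p = 0.00792) and SLC22A5 (-0.77 ± 0.21, adjusted p = 0.0103). ACSL1 read 12.66 at 0 h, 11.26 at 12 h and 12.43 at 45 h. At 24 to 45 h 1 rose, CROT (0.27 ± 0.06, adjusted p = 0.0145), against 2.88%, and 0 fell. Of 7 tested peroxisomal genes 2 rose and 1 fell on the line, against 12.9% and 11.5% of all tested probes, with a median of 0.04. ACOX2, the oxidase of branched chains and bile acid intermediates, fell by 1.47 on the log2 scale (SE 0.22, adjusted p = 9.50e-05), from 10.84 at 0 h to 9.05 at 45 h. ACAA1, the peroxisomal thiolase, rose by 0.54 ± 0.14 (adjusted p = 0.00848; 0.93 with median scaling) and ACOX3, another acyl-CoA oxidase, by 0.31 ± 0.08 (adjusted p = 0.00791).

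Malonyl-CoA blocks the entry of fatty acids at CPT1. Of its 3 genes 2 were tested, with 0 lines past the threshold and a median of -0.20. Lines were called rising for 12.9% and falling for 11.5% of all tested probes, so 2 genes are too few to show a lack of calls. ACACA, the acetyl-CoA carboxylase that makes malonyl-CoA, fell at 0 to 21 h by 0.87 on the log2 scale (SE 0.23, adjusted p = 0.00899), from 10.86 at 0 h to 9.81 at 21 h. Such a fall was called for 15.6% of all tested probes, and ACACA was picked after its values were seen. Over 45 h its line was -0.44 ± 0.21 (adjusted p = 0.150), and that of its second probe 0.0029 ± 0.024 (adjusted p = 0.949). The second probe was dim, with a mean intensity of 250. Of 8 genes that lipids induce through PPAR receptors, 3 were tested, with 0 calls on the line and 0 on the spline and a median of -0.03. The spline called 41.9% of all tested probes, and 3 genes are likewise too few to show a lack of calls. A change of 1.7-fold or more from 0 h at 2 successive times, which carries no test, was met by 1, ANGPTL4, against 13.7% of all tested probes. It read 8.01 at 0 h, 9.03 at 6 h and 8.94 at 9 h. The other tested genes were dim, PLIN2 at 7.94 to 8.01 and UCP3 detected on 3 arrays.

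Of 10 transcriptional regulators 2 rose on the line, 1 fell and 7 did not pass, against 12.9% and 11.5% of all tested probes, with a median of -0.02. RXRA, the common partner of PPAR receptors, rose by 1.05 ± 0.27 (log2 over 45 h, SE, adjusted p = 0.00797; 1.65 with array weights), and ESRRA, the estrogen-related receptor alpha that drives genes of oxidation, by 0.80 ± 0.17 (adjusted p = 0.00175). PPARG, a receptor of fat storage, fell by 0.68 on the log2 scale (SE 0.23, adjusted p = 0.0362). At 24 to 45 h 1 of the 10 fell, PPARG (-0.84 ± 0.22, log2 over 21 h, SE, adjusted p = 0.0323), against 2.19% of all tested probes, and 1 rose. At 0 to 21 h 0 rose and 1 fell, FOXO3 (-1.2 ± 0.3, adjusted p = 0.00644), against 14.6% and 15.6%. The FOXO3 probe was detected on 5 arrays, although its mean log2 signal was 10.6. PPARGC1A, the coactivator of mitochondrial genes, went from 8.34 before treatment to 7.87 by 9 h and back to 8.31 at the end, with a slope of 0.42 ± 0.10 (log2 over 21 h, adjusted p = 0.0241) at 24 to 45 h, a rise called for 2.88% of all tested probes, and was picked after its values were seen. It was detected on 12 of the 16 arrays. At 9 h it lay below the lowest detected signal of that array (7.94), so the depth of its low is not known. With the array set as a block the lines of PDHB, LDHB, CROT, HADH, ACOX2, ACAA1, RXRA and ESRRA kept their sign and lost their calls (adjusted p 0.0602 to 0.500).

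**Figure D5:**
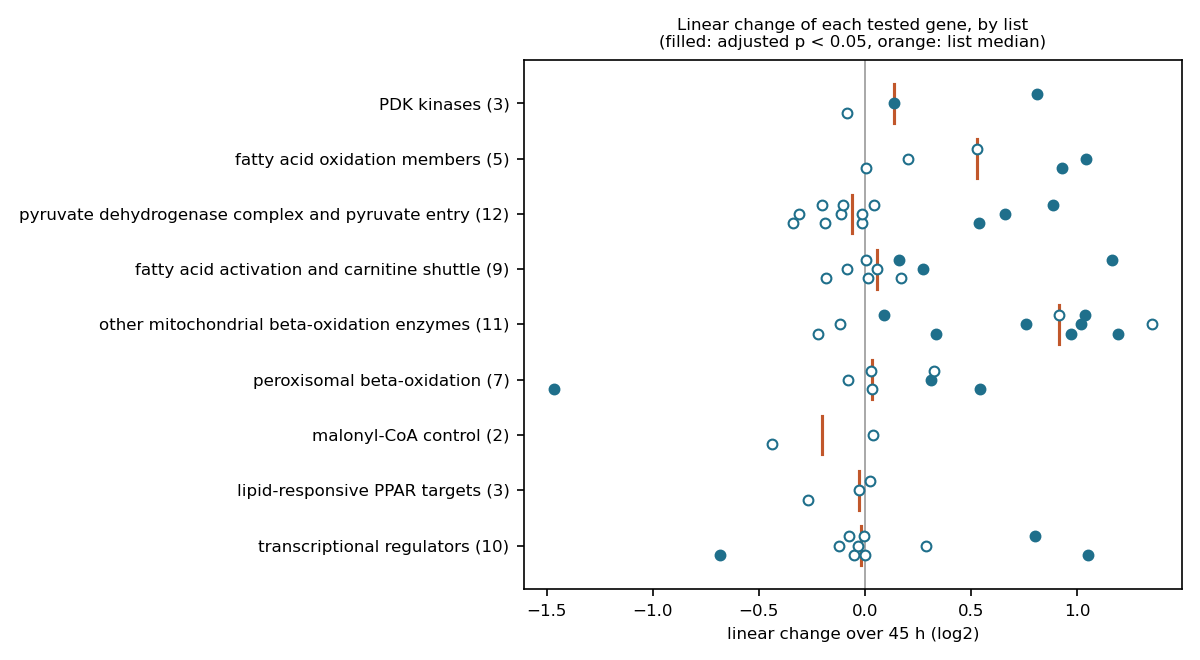
Linear change over 45 h (x axis, log2) of each tested gene, by list (y axis, number tested in parentheses). Filled points had an adjusted p under 0.05 (limma), open points did not, and the orange bar is the median of the list. The other mitochondrial enzymes had a median of 0.92 and 7 rising calls of 11. The lists for PPAR targets and malonyl-CoA, with only 3 and 2 genes tested, had none.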

How the data were processed

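MCF10HER2 RNA, 16 cultures, was hybridised to Illumina Ref-8 v2 arrays. The authors deposited, for every probe and array, an intensity before normalization and a detection p-value. The image software is not given in the sources used here. For their own analysis the authors used quantile normalization. Here intensities were background-corrected with neqc (limma 3.58.1, R 4.3.3, offset 16, control moments from the detection p-values), quantile normalised and taken to log2, and 12321 probes detected on 3 or more arrays were tested. limma (lmFit, eBayes with a trend) gave the spline of time (4 degrees of freedom), the line and the slopes within array sets, with Benjamini-Hochberg adjustment over all tested probes and 0.05 as the threshold. The offset pulls folds of dim probes toward 1. P-values measure the scatter of single arrays about a curve, which may be technical. The number of arrays limits the precision. The scripts were tested on simulated data.

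Members and lists were chosen with earlier results of these data known. The text names the 9 genes, in each list the 2 largest linear changes past the threshold, any count of 5 or fewer, and the 5 probes most like PDK4 and CPT1A; genes picked after their values were seen are marked as such. Gene lists were matched by symbol or older symbol; HADHB and ACOT1 were not analysed here. Alternatives covered background correction, offset, scaling, filter, probe choice, spline, array set, array weights, fold threshold, baseline and each array left out. The scaling to probes detected on all arrays was chosen after seeing the data. Promoters are from RefSeq (GRCh38.p14).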

Additional observations from a re-analysis of the deposited data

Results flagged for a closer look

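The slope of ACADM at 24 to 45 h minus that at 0 to 21 h was -0.86 (log2 over 21 h, adjusted p = 0.0107, limma), so that its rise differed between the earlier and the later arrays. The difference was past the threshold in each leave-one-out fit, from -0.96 to -0.79, with a highest adjusted p of 0.0327. The part of the background of the array sets in it was not tested.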

How the results depend on the processing

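No paired analysis was possible because no time has more than 1 array. With array weights the spline called 7 of the 8 genes, against 4, and the slopes called 1 at 0 to 21 h, against 4, and 3 at 24 to 45 h, against 1. With the array set as a block the line called 2 genes, against 4, and with only probes detected on all 16 arrays 2, since PDK2 and PDK4 were then not tested. Arrays scaled to the probes detected on all 16 left 2 early slopes, and differences of slopes were called for 2 genes, against 1, with normexp at an offset of 50, with median scaling and without the 9 h and 18 h arrays. The 7 rising lines of the other mitochondrial enzymes became 1 with the block and 2 with array weights. At 2 successive times 2 genes changed 2-fold and 1 changed 1.7-fold from the median of the 16 arrays, against 4, and 2 did so at any time from that median. The causes were not tested.

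With each array left out in turn, the genes called ranged from 4 to 5 for the spline, 3 to 4 for the line, 1 to 4 for the early slope, 0 to 2 for the late slope and 1 to 3 for the difference. The other mitochondrial enzymes ranged from 2 to 7 on the line and from 4 to 6 in the early slope. The fewest were left without 0 h (early slope), without 24 h, 27 h or 42 h (late slope) and without 3 h (other enzymes). The relations past the threshold ranged from 0 to 2.

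Signs changed as follows. Scaling to probes detected on all arrays gave lines of -0.18 for PDK2 and -0.34 for CPT1A, early slopes of -0.21 for PDK2, -0.26 for PDK3 and -0.33 for CPT1A, slope differences of 0.28, 0.088 and 0.33 for the same genes, and a late r of 0.11 between PDK4 and CPT1A. It moved all probes alike, and relative to the medians of all tested probes the lines were 0.10 and -0.05, the early slopes 0.087, 0.034 and -0.039 and the differences -0.041, -0.24 and 0.0066. A scaling that subtracts a single constant from each array leaves such relative values as they are, so they are no check on the signs. Median scaling gave HADHA an early slope of 0.064, ACADVL a slope difference of -0.17, and PDK4 an early r of 0.063 with CPT2 and 0.30 with ACADM, which was 0.082 with normexp. The CPT1A line was -0.0098 with the block and -0.0014 with array weights, which gave CPT2 a line of -0.32. With arrays left out, the CPT1A line ranged from -0.0024 to 0.012, the early slope of PDK4 from -0.26 (without 0 h) to 0.67 and the late slope of CPT2 from -0.049 to 0.19. The early r of PDK4 then ranged from -0.18 to 0.62 with CPT1A, -0.82 to 0.25 with CPT2, -0.51 to 0.48 with ACADM and -0.17 to 0.90 with HADHA. Of 1226 values of single genes or relations under an alternative, 1131 kept direction and side of the threshold, 45 lost a call, 20 gained one and 30 changed sign.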
